A study of Mus musculus with 2 samples.

Results

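Trp53, which encodes the transcription factor p53, and 9 of its regulators and targets were examined in mouse T cells brought toward a regulatory fate with and without an inhibitor of HDAC6. The genes were chosen by symbol: Trp53, its negative regulators Mdm2 and Mdm4, the cell death genes Bax, Bbc3 and Pmaip1, and the arrest and stress genes Ccng1, Gadd45a, Sesn1 and Trp53inp1. These were 10 of the 23282 rows (23238 distinct symbols) in the tables. Naïve CD4+ T cells from spleens of wild-type (WT) female C57BL/6 mice, used at 7 to 10 weeks of age, were stimulated with anti-CD3ε and anti-CD28 in medium that induces Treg cells for 1 day, with TGF-β1, IL-2 and blocking antibodies to IFN-γ and IL-4 in both cultures. The control culture received DMSO, the vehicle, and the other culture received 10 µM Tubastatin A (TSA, not to be read as trichostatin A), a selective inhibitor of the deacetylase HDAC6. Total RNA of each culture gave 1 QuantSeq library, a method in which each read comes from near the poly(A) end of a transcript. Such cells, called iTreg cells, are induced in vitro and may not be uniform, and 1 library per condition leaves every difference given here without a replicate check.

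In unstressed cells p53 protein is kept low by MDM2, a ubiquitin ligase that is itself a p53 target, together with the related protein MDM4. After DNA damage or other stress p53 is stabilised and modified, also by acetylation, and binds response elements near genes for cell cycle arrest, DNA repair, metabolism and cell death. In activated T cells the pathway is known to restrain clonal expansion. RNA libraries hold transcript amounts only, so p53 protein and its modifications were not measured.

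To show the p53 letters near the starts of these genes, promoter windows of 300 bases (250 before to 50 after an annotated start) were taken from RefSeq on GRCm38.p6, the patch release of the mm10 build. The table held windows for 8 of the 10 genes, and Pmaip1 and Trp53inp1 were not among them. The windows were searched for the p53 consensus half-site, a run of 10 bases made of 3 purines, C, 2 bases that are A or T, G and 3 pyrimidines. The pattern is its own reverse complement, so both strands were covered. An exact half-site was found for 6 of the 8 genes (75%), beside 9.55% of all 27025 genes with a window and 24.2% of 33 other p53 targets. A pair of half-sites could have 0 to 13 bases between them and at most 1 mismatch in the pair, which could not be in the C or the G. Such a pair was found for 0.718% of all genes with a window (0.627% of all 32851 windows) and for 9.09% of the 33 other p53 targets. Among the 8 genes it was found for Ccng1 alone (12.5%). The following lines give each stretch 5′ to 3′ on the strand of its gene, with the half-sites in capitals, and are shown because they differ in how complete the p53 letters are among genes whose levels are compared. Cdkn1a, which encodes the cell cycle inhibitor p21, is given beside them as a well-known p53 target. Distances are counted from the RefSeq start. The Gadd45a stretch lies inside the gene as placed by GENCODE M21, the source of the gene positions given below.
Trp53 (chr11:69580274-69580303, plus strand, 75 bases before the start): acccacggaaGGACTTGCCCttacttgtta
Mdm2 (chr10:117710925-117710954, minus strand, 186 bases before the start): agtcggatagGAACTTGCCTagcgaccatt
Bax (chr7:45467080-45467109, minus strand, 201 bases before the start): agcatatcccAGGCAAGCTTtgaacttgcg
Ccng1 (chr11:40755452-40755491, minus strand, pair 195 and 185 bases before the start): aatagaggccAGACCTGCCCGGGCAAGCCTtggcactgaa
Gadd45a (chr6:67037428-67037457, minus strand, 40 bases before the start): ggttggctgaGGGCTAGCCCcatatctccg
Sesn1 (chr10:41887256-41887285, plus strand, 173 bases before the downstream start): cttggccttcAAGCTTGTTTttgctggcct
Cdkn1a (chr17:29090896-29090957, plus strand, from 73 to 41 bases before the start): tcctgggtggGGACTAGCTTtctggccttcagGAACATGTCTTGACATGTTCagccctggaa
The Ccng1 half-sites lie directly side by side, and the left one has 1 mismatch. The last half-site of the Cdkn1a line also has 1 mismatch. The Cdkn1a stretch is from the window of its upstream start. The windows of Mdm4 and Bbc3, the upstream window of Sesn1 and the downstream window of Cdkn1a held no exact half-site. This says only that these letters are not in these windows.

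The deposited values were log2 of a normalized read count plus 1. Taken back from that scale, they summed to 10845913 control reads and 10432286 TSA reads on genes, and the 12164 genes that reached 10 reads in either library were examined. A fold change is TSA over control on the deposited scale. The 95% interval beside it is the exact Clopper-Pearson interval of the ratio of reads, which sets 1 library against another and holds counting error alone, since PCR copies of a molecule count as separate reads and each condition has 1 library. All 8 markers of the CD4 T cell list were detected (17852 control and 17540 TSA reads in sum, Cd4 with 2434 and 2549). Markers of other cells were scarce. The CD8 list summed to 80 and 87 reads, the B cell list to 12 and 15, the myeloid list to 58 and 40, the NK cell list to 0 and 3 and the erythroid list to 32 and 45. The defining markers Pax5, C1qa and Klrb1c had 0 reads in both libraries, which allows up to a CPM of 0.277 in the control and 0.288 in the TSA library. Foxp3, the lineage factor of Treg cells, had 1633 control reads and 965 TSA reads. The part of this difference in those given below was not tested.

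All 10 genes were examined. Across them there was no shared direction. Of the 10, 6 had a higher value in the TSA library and 4 a lower one. Of all 12164 genes examined 6246 were higher and 5910 lower. The log2 fold changes of the 10 had a median of 0.15 and ran from −0.69 to 1.21, beside a median of 0.015 over all genes examined. Sesn1 and Gadd45a passed 2-fold, both higher, and none was lower by 2-fold. Over all genes examined 14.7% passed 2-fold, 11.5% higher and 3.15% lower. Where the mean normalized count was 50 or more (9399 genes), 4.46% passed, and of the 9 p53 pathway genes at that level Sesn1 did. Of the 1400 genes higher past 2-fold 278 had such a mean count, and of the 383 lower 141 did. Most genes higher past 2-fold thus had few reads. The interval excluded no change for 7 of the 10, with 3 higher (Mdm4, Sesn1, Trp53inp1) and 4 lower (Trp53, Mdm2, Bax, Ccng1). The same held for 56.1% of all genes examined, 28.1% higher and 28% lower.

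**Figure D1:**
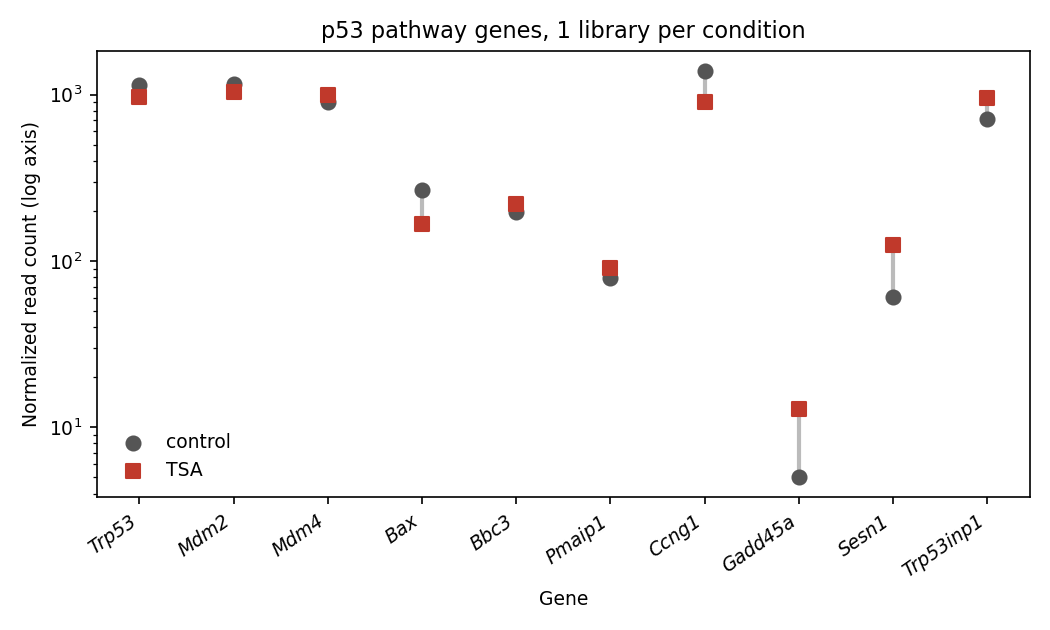
Normalized read count (log axis) of the 10 genes in the control library (grey circles) and the TSA library (red squares), 1 library each, with a grey line joining the pair. Ccng1 and Bax sit lower in the TSA library, Sesn1, Gadd45a and Trp53inp1 sit higher, and the points of the other genes lie close together.

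Trp53 itself was slightly lower with TSA. The gene (ENSMUSG00000059552, chr11:69580359-69591873, plus strand) had 1141 control reads and 970 TSA reads (fold change 0.842, interval 0.772 to 0.918). Of all genes examined, 25.9% had a lower log2 fold change, so Trp53 was in neither tail of the distribution. In a bulk library fewer cells of a type and less RNA per cell cannot be told apart, here and for every gene that follows. A processed pseudogene, Trp53-ps, lies on chromosome 17 in GENCODE M21 and is not among the rows of the tables, and how reads that match both copies were counted is not given in the sources used here. The p53 relatives Trp63 (0 reads in both libraries) and Trp73 (1 and 0 reads) were under the floor of 3 reads.

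The 2 negative regulators lay on opposite sides of no change. Mdm2 (chr10:117688875-117710758, minus strand), the ubiquitin ligase and feedback target, had 1146 control reads and 1036 TSA reads (fold change 0.895, interval 0.822 to 0.974). This small difference came within counting error under scaling by total reads or upper quartile. Mdm4 (chr1:132959484-133030561, minus strand), which binds p53 and blocks its activation domain, had 897 and 1001 reads (fold change 1.10, interval 1.01 to 1.21). Summed, the pair had 2043 control reads and 2037 TSA reads, a ratio of 0.987 (0.928 to 1.05). A processed pseudogene, Mdm4-ps, lies on chromosome X and is not among the rows.

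Of the 3 cell death genes, Bax was lower in the TSA library and the BH3-only genes were within counting error. Bax (chr7:45461697-45466898, minus strand), whose product forms pores in the outer mitochondrial membrane, had 267 control reads and 167 TSA reads. Its fold change was 0.621 (0.507 to 0.754), and 6.15% of the genes examined had a lower one. Its annotation overlaps Gm45808 on the same strand, away from the end of the transcript that QuantSeq reads. Bbc3 (chr7:16308393-16318205, plus strand), which encodes PUMA, had 196 and 222 reads (fold change 1.12, interval 0.921 to 1.37). Pmaip1 (chr18:66458533-66465565, plus strand), which encodes NOXA, had 79 and 91 reads (fold change 1.14, interval 0.834 to 1.56). Both intervals reach from below to above no change, so no difference was detectable for either gene at this depth. Bak1, the close relative of Bax with the same pore-forming role, had 280 and 241 reads (fold change 0.853, interval 0.714 to 1.02), and Bok had 4 and 3 reads and was not examined.

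The arrest and stress genes went both ways. Ccng1 (chr11:40748552-40755311, minus strand), which encodes cyclin G1, a p53 target that recruits a phosphatase to MDM2, had 1377 control reads and 911 TSA reads. The fold change of 0.655 (0.602 to 0.713) lay below that of all but 7.63% of the genes examined. Its relative Ccng2 had 114 and 115 reads, with an interval of 0.764 to 1.31. Among the genes with p53 letters printed above, Trp53, Mdm2, Bax, Ccng1 and Cdkn1a had lower values with TSA, and Sesn1 and Gadd45a had higher ones.

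Sesn1 (chr10:41809935-41908424, plus strand), which encodes sestrin 1, a stress protein that restrains mTORC1, was higher in the TSA library. It had 60 control reads and 125 TSA reads, a fold change of 2.04 and a ratio of reads of 2.06 (1.505 to 2.86). The interval excludes no change but includes values under 2-fold, and 88.7% of the genes examined had a lower fold change. The other 2 sestrins did not share 1 direction. Sesn3, a target of FOXO factors, had 410 and 697 reads (fold change 1.68, interval 1.49 to 1.91), and Sesn2, which responds to p53 and to amino acid shortage, had 19 and 3, a ratio of 0.156 (0.0296 to 0.531). Sesn2 was the only examined relative past 2-fold, and its 3 reads in the TSA library are at the floor of detection. The 3 sestrins together had 489 control reads and 825 TSA reads, a ratio of 1.67 (1.49 to 1.87), most of them from Sesn3.

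Gadd45a (chr6:67035096-67037457, minus strand), a damage-induced gene whose product binds PCNA and p21, rested on few reads. It had 5 control reads and 13 TSA reads, a fold change of 2.31 on the deposited scale and a ratio of reads of 2.57. The interval of the ratio, 0.861 to 9.22, includes no change, so the passage past 2-fold is within counting error. On the opposite strand it overlaps E230016M11Rik, which is also among the rows, away from the end of the transcript. Its relatives had more reads. Gadd45b had 596 control reads and 806 TSA reads (fold change 1.34, interval 1.20 to 1.49), and Gadd45g had 272 and 513 (fold change 1.86, interval 1.61 to 2.17). Both were higher in the TSA library. They are known to answer cytokine and T cell receptor signals in T cells. The 3 genes together had 873 and 1332 reads, a ratio of 1.51 (1.39 to 1.65).

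Trp53inp1 (chr4:11156431-11174379, plus strand), which encodes a nuclear protein that promotes phosphorylation of p53 and takes part in autophagy, had 713 control reads and 964 TSA reads. The fold change of 1.34 (1.21 to 1.48) was above that of 76.2% of the genes examined. Trp53inp2, its relative, had 36 and 40 reads, with an interval of 0.684 to 1.78. Over the 10 relatives as a list, 7 were examined, 3 were higher than counting error allows, 1 was lower and 3 had an interval that includes no change, with a median log2 fold change of 0.14. The interval excluded no change for 4 of 7, beside 56.1% of all genes examined, and 1 of 7 passed 2-fold, beside 14.7%, so both shares were near the background.

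**Figure D2:**
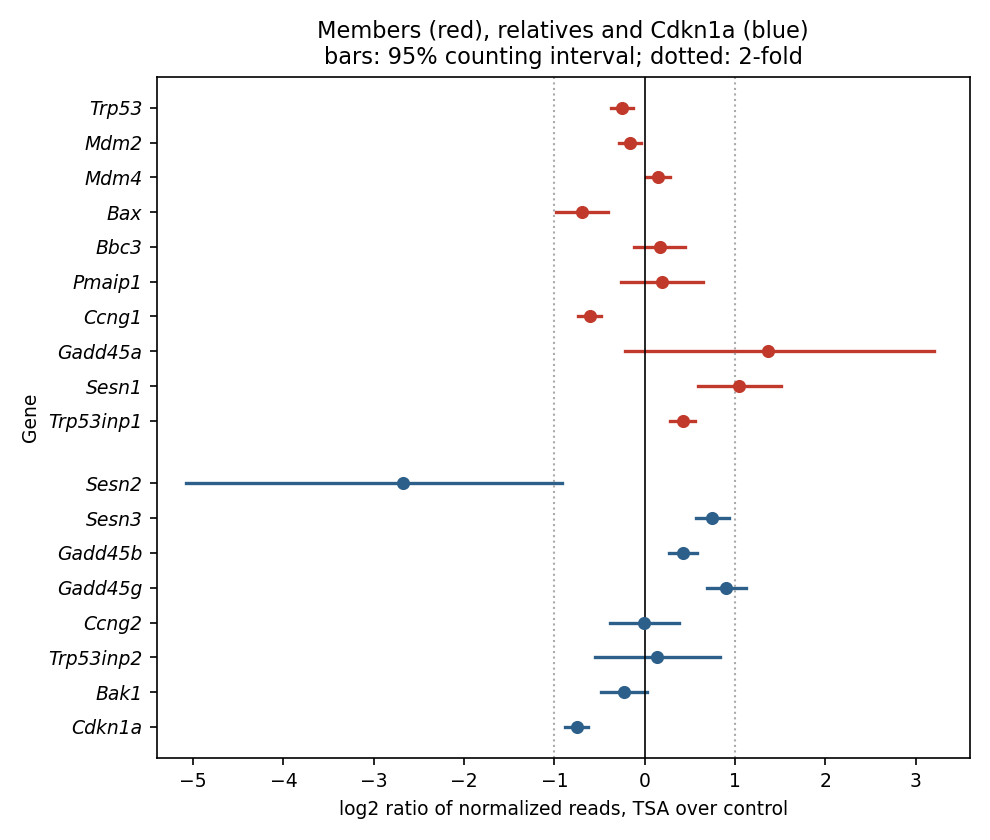
Ratio of normalized reads, TSA over control, on a log2 axis for the 10 genes (red) and for 7 relatives and Cdkn1a (blue), with bars for the 95% counting interval of 1 library per condition and dotted lines at 2-fold. Bax, Ccng1 and Cdkn1a lie to the left of 0, Sesn1, Trp53inp1, Sesn3, Gadd45b and Gadd45g to the right, and the bars of Bbc3, Pmaip1 and Gadd45a cross 0.

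To see whether other p53 targets had a common direction, 43 further targets were grouped by role. Of these 38 were examined. Past 2-fold there were 2 higher (Dram1 and Dcxr) and 0 lower, beside 11.5% higher and 3.15% lower of all genes examined. Both had a mean normalized count under 50, as did most of all genes higher past 2-fold. The interval excluded no change for 10 higher and 9 lower, beside 28.1% and 28%. The median log2 fold change was 0.037, near the 0.015 of all genes examined. The interval included no change for the other 19. The share whose interval excludes no change was thus near the background of 56.1%.

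Cdkn1a (chr17:29090976-29100727, plus strand), the p53 target that encodes p21 and halts the cycle, was the arrest gene furthest below 0. It had 1388 control reads and 833 TSA reads (fold change 0.595, interval 0.545 to 0.648), and 5.28% of the genes examined had a lower one. The window of its upstream start holds the longest run of p53 letters printed above, and that of its downstream start holds no exact half-site. Plk3, a stress kinase, and Zmat3, an RNA-binding protein, were within counting error, Plk3 with 587 and 604 reads and an interval of 0.908 to 1.14, and Zmat3 with 542 and 578 reads and an interval of 0.938 to 1.19. Of the 10 arrest targets 8 were examined, with 2 higher (Btg2 and Ppm1d) and 1 lower (Cdkn1a) by the interval, no more than the 28.1% and 28% of all genes. Here and in the following counts, Ppm1d, Apaf1, the genes with too few reads to be examined and those that only a bracket names were picked after their values were seen. Ppm1d, the phosphatase WIP1 that turns p53 signalling off, had 221 and 300 reads and a fold change of 1.34 (1.13 to 1.61). Rprm had 0 reads in both libraries, and Trp53cor1 had 2 and 4.

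Among 14 cell death targets 13 were examined, with 3 higher (Fas, Tnfrsf10b, Apaf1) and 3 lower (Aen, Phlda3, Rps27l) by the interval, near the 28.1% and 28% of all genes, 5 above and 8 below 0, and a median log2 fold change of −0.10. Rps27l, a ribosomal protein-like p53 target, had 2589 control reads and 2153 TSA reads (fold change 0.824, interval 0.777 to 0.872). Siva1, a CD27-binding protein, had 1089 and 1027 reads, and Triap1, an inhibitor of apoptosis at mitochondria, had 747 and 697. Their intervals, 0.857 to 1.02 and 0.832 to 1.03, include no change. Dram1, an autophagy gene, had 4 and 12 reads, and its ratio of 2.97 had an interval of 0.900 to 12.6. Fas, the death receptor, and Aen, a nuclease of apoptosis, are named here after their values were seen. Fas had 138 control reads and 249 TSA reads (fold change 1.78, interval 1.45 to 2.22). Aen had 532 and 333 (fold change 0.621, interval 0.539 to 0.712), the same size as that of Bax. Apaf1, the core of the apoptosome, was among the higher genes with 150 and 205 reads (interval 1.09 to 1.68), so the cell death genes lay on both sides.

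No repair target passed 2-fold, beside 14.7% of all genes examined. Of 8 genes 7 were examined, and 1 was higher (Ercc5) and 3 lower (Xpc and Fancc among them) by the interval, beside 28.1% and 28% of all genes. Under scaling by total reads the intervals of all 3 lower genes include no change. Polh had 9 and 8 reads and was not examined. Xpc, which senses damage in nucleotide excision repair, had 264 and 220 reads (fold change 0.826, interval 0.687 to 0.991). Polk, a translesion polymerase, had 246 and 231 reads with an interval of 0.774 to 1.12.

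Metabolic and redox targets had the highest median log2 fold change of the target groups, 0.22, with 7 of the 10 examined genes above 0, and 4 higher (Dcxr, Gls2, Ephx1, Ddit4) and 2 lower (Gpx1, Tap1) by the interval. The interval thus excluded no change for 6 of 10, near the 56.1% of all genes. Dcxr, a carbonyl reductase, had 14 control reads and 44 TSA reads, a ratio of 3.11 (1.67 to 6.15). Gls2, the p53-responsive glutaminase, had 202 and 332 reads (fold change 1.62, interval 1.36 to 1.95), and Ephx1, an epoxide hydrolase, had 118 and 201 (fold change 1.68, interval 1.34 to 2.14). Both of these were named after their values were seen. Ddit4, an mTORC1 inhibitor also known as REDD1, had 892 and 1012 reads (fold change 1.12, interval 1.03 to 1.23). The most abundant genes of the group lay the other way. Gpx1, a glutathione peroxidase, had 6350 control reads and 5329 TSA reads (fold change 0.831, interval 0.801 to 0.862), and Tap1, a peptide transporter of antigen presentation, had 2989 and 2570 (fold change 0.851, interval 0.807 to 0.898).

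**Figure D3:**
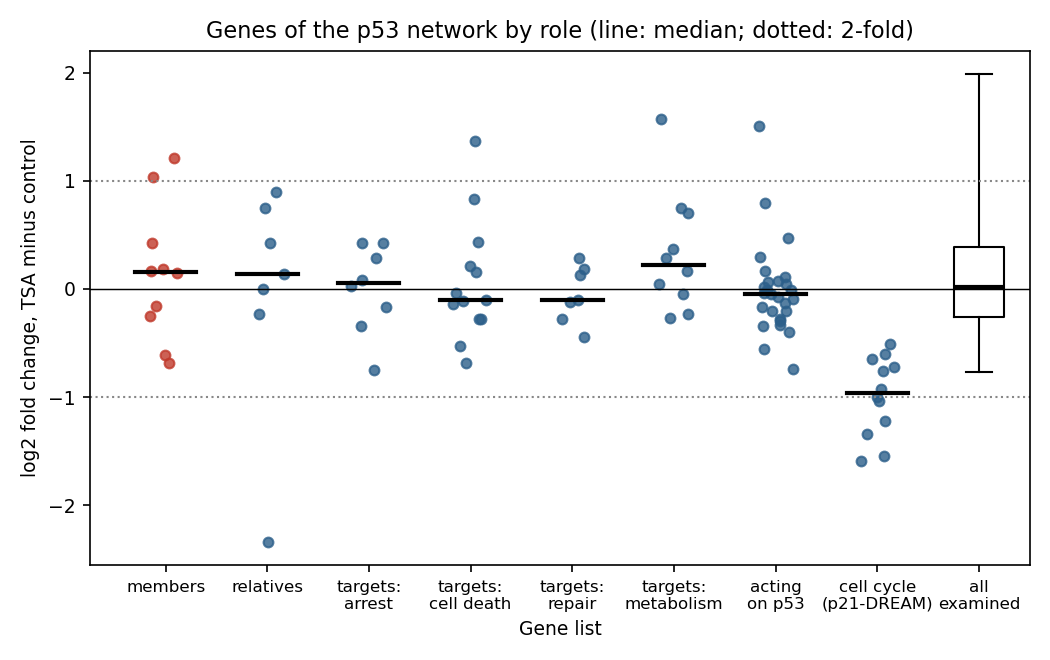
Log2 fold change, TSA minus control, of each examined gene (1 point) in lists of the p53 network, with a black line at the median and dotted lines at 2-fold. The box at the right shows the quartiles of all 12164 genes examined and its whiskers span their 5th to 95th percentiles. The medians of the 10 genes (red), their relatives, the target groups and the genes acting on p53 lie between −0.10 and 0.22, and that of the cell cycle list lies at −0.96.

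Genes that act on p53, such as kinases, ligases and acetyltransferases, were near no change as a list. Of 28 genes 27 were examined, 1 passed 2-fold (14.7% of all genes did), and the interval was above no change for 4 (Hdac1, Ppp1r13l, Rpl5, Dyrk2), below it for 8 and included it for 15 (28.1% of all genes lay above and 28% below), with a median log2 fold change of −0.051. Ppp1r13l, which encodes iASPP, an inhibitor of p53, was the gene past 2-fold. It had 14 reads in the control and 42 in the TSA library and a ratio of 2.97 (1.59 to 5.89). Its mean normalized count was under 50, as was that of most genes higher past 2-fold. Rpl5, a ribosomal protein that can hold MDM2 away from p53, had 14692 and 18216 reads (fold change 1.23, interval 1.20 to 1.25). Rpl11, its partner in the same complex, had 2582 and 2648 reads with an interval of 0.962 to 1.07, which lies above no change under scaling by total reads. Usp7, the deubiquitinase of MDM2 and p53, had 3166 and 3112 reads with an interval of 0.926 to 1.02. The 8 lower genes, named here after their values were seen, were the kinases Chek1 and Prkdc, the deacetylase Hdac2, the acetyltransferases Kat5, Ep300 and Crebbp and the methyltransferases Setd8 and Smyd2. Under scaling by total reads the intervals of Chek1 and Smyd2 include no change. Those of Rchy1 (1.01 to 1.28) and Sirt1 (1.01 to 1.38), also named after their values were seen, then lie above no change, as does that of Rpl11. The 8 genes held several kinds of enzyme, and Hdac1, the partner of Hdac2, was among the higher genes.

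The cell cycle genes that p53 is known to repress through p21 and the DREAM complex had lower values with TSA throughout. All 12 were below 0 on the log2 scale, 5 of them past 2-fold, and the interval lay below no change for 11 (all but Cdc25c), beside 3.15% and 28% of all genes examined. Their median log2 fold change was −0.96. Bub1, a spindle checkpoint kinase, had 252 control reads and 84 TSA reads (fold change 0.333, interval 0.255 to 0.424), and Foxm1, the factor that drives mitotic genes, had 319 and 110 (fold change 0.343, interval 0.272 to 0.425). Birc5, which encodes survivin, had 1527 and 609 reads (fold change 0.395, interval 0.359 to 0.434), and the mitotic kinase Plk1 had 950 and 412 (fold change 0.430, interval 0.382 to 0.483). Cdk1, the main mitotic kinase, had 2404 and 1468 reads (fold change 0.605, interval 0.566 to 0.645), and Ccna2, which encodes cyclin A2, had 1652 and 876 (fold change 0.525, interval 0.483 to 0.570). Cdc20, the fifth past 2-fold and named after its values were seen, had 668 and 329 reads. These genes and Cdkn1a were lower in the same library. They also mark cycling cells in general, and in these libraries fewer cycling cells and less of these transcripts per cell cannot be told apart.

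**Figure D4:**
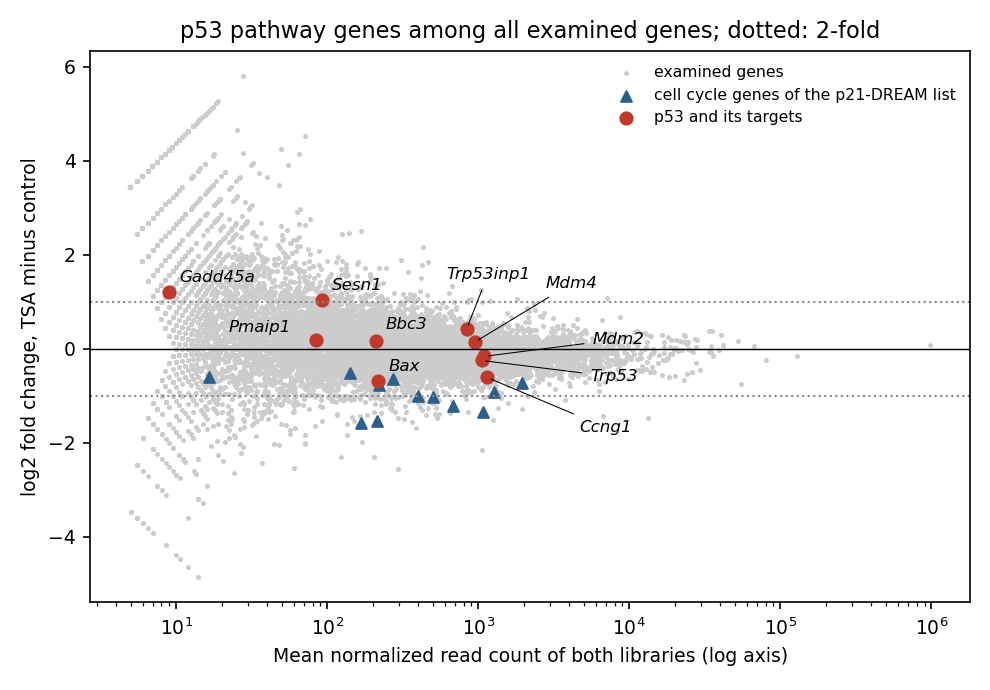
Log2 fold change, TSA minus control, against the mean normalized read count of both libraries (log axis) for the 12164 genes examined (grey), the 10 p53 pathway genes (red, named) and the 12 cell cycle genes of the p21-DREAM list (blue triangles), with dotted lines at 2-fold. Gadd45a sits among the genes of few reads, where the grey points spread most, and the blue triangles all lie below 0.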

How the data were processed

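Total RNA of 1 control and 1 TSA culture was sequenced as single-end 75-nt QuantSeq reads. The submitters' processing notes name Bowtie2, bedtools and the mm10 build. The normalization method, the annotation and the strand of counting are not given in the sources used here. The authors deposited 1 log2 value per gene and library, log2 of a normalized count plus 1 as found from the values. Samples were grouped by their treatment label.

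Reads were recovered by undoing the log2 scale, where 1 read was worth 1.005 normalized counts in the control and 0.995 in the TSA library. Of values from 1 to 300 reads, 99.8% in each library lay within 0.1 of a whole number. In the control, 1940 rows above 0 held less than 1 read and were read as 0. The log2 fold change is the deposited TSA value minus the control value, with its pseudocount of 1, which understates the change of low genes. Genes with at least 10 reads in 1 library were examined, 2-fold was the threshold, and no p-value was computed. Intervals (95%) are exact Clopper-Pearson intervals and cover counting error only, and 3 reads were the floor. The steps were tested on simulated data.

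The 10 genes and all lists were chosen with earlier results of these data known. Named are the 10 genes, their relatives, Cdkn1a and, per other list, up to 4 genes past 2-fold and the 3 with the most reads, and any other gene is marked. A gene that this rule covers and some markers are not reported here. All 130 listed symbols were matched, 1 by an older symbol. Gene positions are from GENCODE M21 (GRCm38) and sequences from RefSeq (GRCm38.p6). The promoter search was added after the data were seen. Alternatives were the scaling, the pseudocount (0.1 and 5), the threshold and the filter. Python 3.11.15, numpy 2.4.6, pandas 2.3.3, scipy 1.17.1 and matplotlib 3.10.9 were used.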

Additional observations from a re-analysis of the deposited data

How the results depend on the processing

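No paired analysis was possible because each condition had a single library, which also means that leaving out a replicate could not be tried. The log2 fold changes of the 10 genes, of 7 relatives and of Cdkn1a (18 genes, 108 values) moved by less than their counting interval under each scaling and pseudocount, and none of the 10 genes changed sign. The median of the 10 genes, 0.15, was 0.22 with total reads and 0.20 with the upper quartile, and these scalings shifted every gene by 0.070 and 0.043 on the log2 scale. The number of the 10 genes past 2-fold, 2, was 0 with a pseudocount of 5, 0 when the whole interval had to lie beyond 2-fold, 1 with 10 reads in both libraries, 1 where the mean count was 50 or more and 4 at 1.5-fold. Past 1.5-fold, 2279 of all 12164 genes examined were higher and 1014 lower. The 7 genes whose interval excludes no change became 6 with total reads or the upper quartile, without Mdm2. In the wider lists 9 of the 84 examined genes passed 2-fold, 24 passed 1.5-fold and 5 passed 2-fold with a mean of at least 50. Over all genes examined 14.7% passed 2-fold, and 4.46% did with such a mean. The counts of all genes at 1.5-fold are those given above. The median of the relatives turned from 0.14 to −0.0020 without a filter, which adds genes of few reads, and was 0.28 with 10 reads in both libraries and 0.42 with a mean of at least 50. That of the genes acting on p53 turned from −0.051 to 0.019 with total reads. Intervals cover counting error only, and few reads limit Gadd45a, Sesn2, Pmaip1 and Dram1.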

Other observations

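The TSA library had a read for more genes than the control (14994 and 13694). Among p53 pathway genes under 10 reads the larger differences were toward more TSA reads. Eda2r, a receptor of the TNF receptor family and p53 target, had 0 control reads and 8 TSA reads. Ak1, an adenylate kinase, had the same numbers, and the lower end of the interval was 1.69 for both. Cdkn2a, whose alternative frame encodes the MDM2 inhibitor ARF, had 2 and 8 reads. Trp53cor1 had 2 and 4 reads. A little lower with TSA were Trp73 with 1 and 0 reads, Bok with 4 and 3 and Polh with 9 and 8. The intervals of Cdkn2a, Trp53cor1, Trp73, Bok and Polh include no change. None of these reached 10 reads, and they were not examined.

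Fold changes were also set beside the promoter letters, a comparison chosen after the data were seen and described without a test. Of 736 examined genes with an exact p53 half-site in a window, 13.99% were higher and 2.72% lower past 2-fold in the TSA library, with a median log2 fold change of 0.015. Of 8461 without one, 10.7% were higher and 2.72% lower, with a median of 0.011. Of 51 genes with a pair of half-sites, 9 (17.6%) were higher and 2 (3.92%) lower, with a median of 0.063. Of 9146 without a pair, 10.97% were higher and 2.71% lower, with a median of 0.011. The medians lay close together. The shares higher past 2-fold were larger with p53 letters than without, for half-sites and for pairs, and this difference was not tested.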
